A study of Mus musculus with 6 samples.

Results

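The genes of the phagocyte NADPH oxidase were followed in tumour-conditioned mouse macrophages exposed to β-elemene. The 6 members, Cybb, Cyba, Ncf1, Ncf4, Rac1 and Rac2, were chosen by gene symbol from the 21878 genes of the count table, and each had 1 row in it. Marrow of wild-type C57BL/6 mice was grown into macrophages with 50 ng/mL of M-CSF, the growth factor of this lineage, and shared medium for 48 h with LLC cells (mouse lung carcinoma) across pores of 0.4 µm. Fresh medium then carried either 100 µg/mL of the plant sesquiterpene β-elemene (3 libraries) or as much phosphate-buffered saline, PBS (3 libraries), for 24 h. All 6 libraries therefore share the marrow strain, the growth factor and the tumour-cell co-culture, and no library of macrophages without LLC cells was analysed here. The labels do not say whether the 3 libraries of a group came from separate cultures or animals, so p-values measure the spread between libraries, which may be technical.

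The oxidase is the enzyme with which phagocytes make superoxide during the respiratory burst. It has a membrane core, cytochrome b558, made of the catalytic subunit NOX2 (Cybb) and its partner p22phox (Cyba). Cytosolic subunits, among them the organiser p47phox (Ncf1) and p40phox (Ncf4), move to that core together with a Rac GTPase when the cell is stimulated, and loss of the core or a cytosolic subunit causes chronic granulomatous disease in humans. Only transcript levels were measured, so assembly, phosphorylation and superoxide output are outside these data.

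Each library held 18916844 to 20729887 gene counts. Levels are given as CPM, the share of a library's counts on a common scale, after TMM scaling, which corrects for the make-up of each library. The labelled cell type was checked against its markers: all 9 macrophage markers were detected in both groups, with Lyz2, a lysozyme gene, giving the most counts, and their summed level was 16659 to 17216 CPM with β-elemene and 13565 to 14569 CPM with PBS. Neutrophils, which also carry the oxidase in large amounts, were looked for with 11 markers. These summed to 34.6 to 50.3 CPM with β-elemene and 23.2 to 25.2 CPM with PBS, most of it from Mmp8, S100a8 and S100a9. Retnlg was at 0 in all libraries, and Ly6g had 4 counts in all with β-elemene and 0 with PBS. Of the 8 neutrophil markers tested, 4 rose, 2 fell and 2 did not pass. The part of these cells in the oxidase values was not tested. Markers of epithelial carcinoma cells summed to at most 0.195 CPM with β-elemene and 0.194 CPM with PBS, and fibroblast markers to 1.69 to 3.87 CPM with β-elemene and 13.2 to 17.2 CPM with PBS. In bulk RNA, fewer cells of a type and less RNA per cell cannot be told apart.

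With TMM scaling all 6 members rose under β-elemene, of which Cyba, Ncf4 and Rac1 were called lower with library size alone. They divided by size. Cybb, Ncf1 and Rac2 rose 5.15-fold, 2.76-fold and 2.30-fold, whereas Cyba, Ncf4 and Rac1 rose by 1.20-fold to 1.37-fold. Across all genes tested, 76.7% passed the same threshold in either direction and 36.6% were called higher, 4189 genes against 4602 lower (edgeR quasi-likelihood test, Benjamini-Hochberg adjusted p under 0.05 over 11459 genes). With library size alone 2166 genes were higher and 8003 lower, and with the upper quartile 2947 and 6528. For all 6 members the β-elemene libraries lay above the PBS libraries without overlap, which held for 37.9% of the genes tested. The median log2 fold change was 0.83 over the members and -0.06 over all genes.

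Promoter sequences were available for 3 of the 6 members, Cybb, Cyba and Ncf1, and all 3 are shown. Each window runs from 250 bases before to 50 bases after a RefSeq transcription start, on the gene's own strand (RefSeq, GRCm38.p6). Cybb lies on chromosome X (9435252 to 9487766, minus strand), Cyba on chromosome 8 (122424771 to 122432940, minus strand) and Ncf1 on chromosome 5 (134220053 to 134229628, minus strand). The RefSeq start used for Cybb lies inside its annotated span. The windows are chrX:9469275-9469574, chr8:122432891-122433190 and chr5:134229576-134229875. Of 5 motifs searched on both strands, capitals mark 3: GGAANNGAA, a short form of the joint site for Ets factors such as PU.1 and interferon regulatory factors, the CCAAT box, and GGGCGG, the GC box bound by Sp1.
Cybb: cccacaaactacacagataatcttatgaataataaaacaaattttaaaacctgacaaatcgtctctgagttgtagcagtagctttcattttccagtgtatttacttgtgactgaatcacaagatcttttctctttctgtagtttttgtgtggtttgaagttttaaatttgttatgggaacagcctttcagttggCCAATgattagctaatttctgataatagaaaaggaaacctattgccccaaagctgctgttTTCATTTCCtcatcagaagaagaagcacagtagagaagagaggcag
Cyba: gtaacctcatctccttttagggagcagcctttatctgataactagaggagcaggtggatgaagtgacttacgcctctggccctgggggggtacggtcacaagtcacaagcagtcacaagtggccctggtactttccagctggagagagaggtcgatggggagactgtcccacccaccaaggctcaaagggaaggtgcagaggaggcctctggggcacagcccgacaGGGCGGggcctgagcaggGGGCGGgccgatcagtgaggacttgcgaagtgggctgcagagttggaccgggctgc
Ncf1: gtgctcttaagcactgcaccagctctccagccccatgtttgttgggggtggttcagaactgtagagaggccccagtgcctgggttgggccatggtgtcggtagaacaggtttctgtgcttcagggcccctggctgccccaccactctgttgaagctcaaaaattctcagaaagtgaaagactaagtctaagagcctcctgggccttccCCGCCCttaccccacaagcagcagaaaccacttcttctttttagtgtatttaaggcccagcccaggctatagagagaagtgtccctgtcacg

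The Cybb window held GGAANNGAA on its reverse strand, read as TTCATTTCC from base 5 after the start, and a CCAAT box 56 bases before it. A further motif, GAGGAA, the core of many PU.1 sites, overlapped it from base 10 after the start. The Cyba window held GGGCGG at 24 and at 6 bases before the start, and the Ncf1 window held it on the reverse strand 42 bases before the start. The last motif searched, TTCNNNGAA, is not in capitals and was found in the Ncf1 window, as TTCTCAGAA from 88 bases before the start. Among 27025 promoter windows of the same length, 8.25% held GGAANNGAA, 37.9% CCAAT, 35.9% GGGCGG, 28.3% GAGGAA and 8.47% TTCNNNGAA. Among the 8913 windows that belong to genes tested here, the shares were 7.28%, 39.2%, 64.8%, 27.3% and 6.99% in the same order, so GGGCGG was in most of them. These matches describe letters in the window and were not tested as binding sites.

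The catalytic subunit showed the largest difference. Cybb had 4288, 4273 and 4084 CPM in β-elemene replicates 1, 2 and 3, against 805.1, 745.4 and 905.7 CPM in PBS replicates 1, 2 and 3. The lowest β-elemene library was thus several times the highest PBS library. The log2 fold change was 2.36 (SE 0.08, edgeR adjusted p = 1.18e-11), and 754 of the 11459 genes (6.58%) had a log2 fold change at least as high. Cyba encodes the partner chain that NOX2 needs to be stable, and it had 735.9, 768.0 and 695.3 CPM in the β-elemene libraries against 530.2, 548.4 and 525.9 CPM in the PBS libraries. Its groups did not overlap, and its log2 fold change was 0.45 (SE 0.06, edgeR adjusted p = 1.21e-05). That rise depends on the scaling, as given below.

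Among the cytosolic subunits, Ncf1, which links the phosphorylation signal to the core, had 391.7, 325.4 and 356.8 CPM with β-elemene against 130.7, 131.5 and 127.4 CPM with PBS. The β-elemene libraries spread more widely (SD 33.2 CPM, n = 3) than the PBS libraries (SD 2.17 CPM, n = 3), and even the lowest of them, replicate 2, was well above every PBS library. The log2 fold change was 1.46 (SE 0.07, edgeR adjusted p = 2.45e-10). Ncf4 (chromosome 15, 78244164 to 78262582, plus strand) encodes p40phox, which binds a phosphoinositide of the phagosome membrane. It had 463.6, 506.3 and 462.7 CPM with β-elemene against 377.7, 394.1 and 407.5 CPM with PBS, and its log2 fold change was 0.28 (SE 0.06, edgeR adjusted p = 8.57e-04). The gap between the lowest β-elemene library and the highest PBS library was small beside the gaps of Cybb and Ncf1.

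The GTPases differed in the same way. Rac2 (chromosome 15, 78559169 to 78572783, minus strand), the Rac of blood cells, had 735.7, 714.7 and 672.0 CPM with β-elemene against 317.4, 294.2 and 311.3 CPM with PBS (log2 fold change 1.20, SE 0.06, edgeR adjusted p = 6.27e-10). No β-elemene library came near the PBS range. Rac1 (chromosome 5, 143505481 to 143528031, minus strand), found in nearly all cells, had 355.5, 365.8 and 357.3 CPM with β-elemene against 293.9, 313.1 and 290.4 CPM with PBS (log2 fold change 0.27, SE 0.06, edgeR adjusted p = 6.37e-04). In the GENCODE annotation 2309 bases of Rac1 exons overlap exons of Daglb on the other strand, and Daglb stood at 44.4 CPM with β-elemene and 218.6 CPM with PBS. The strand setting used in counting is not given in the sources used here, so the Rac1 value is uncertain. For Ncf1 the overlap with Gtf2ird2 was 408 bases, and Gtf2ird2 stood at 2.77 CPM with β-elemene and 7.99 CPM with PBS.

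**Figure D1:**
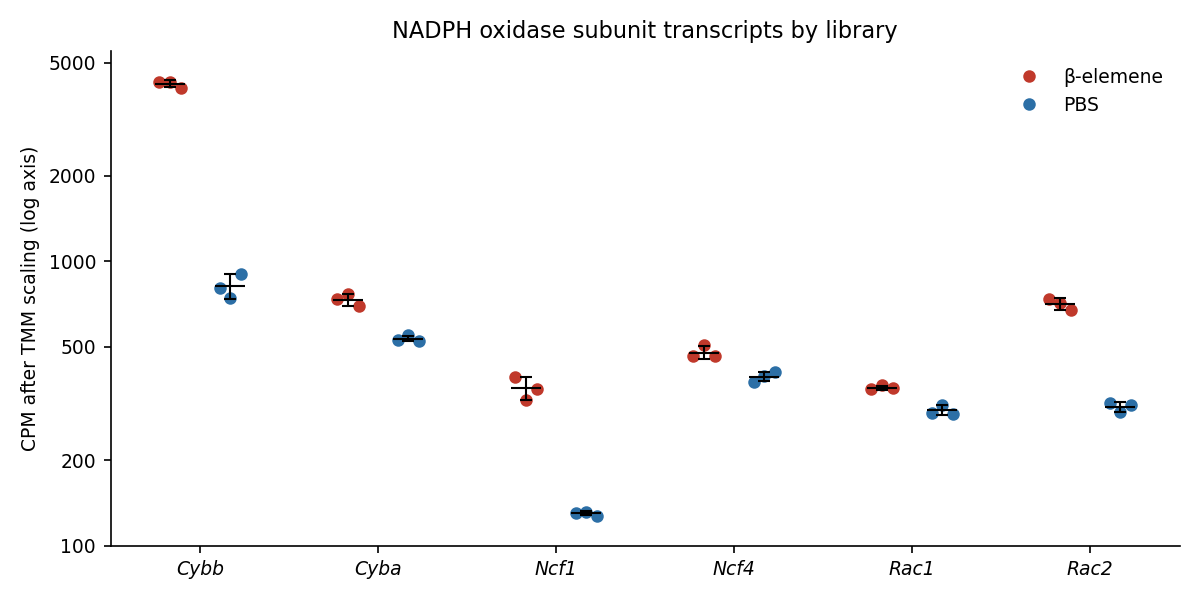
CPM after TMM scaling (log axis) of the 6 members in each of the 3 β-elemene libraries (red) and 3 PBS libraries (blue); bars are the mean ± SD. Cybb lies at 4084 CPM or more with β-elemene and at 905.7 CPM or less with PBS. For all 6 genes the β-elemene libraries lie above the PBS libraries on this scale (with library size alone Cyba, Ncf4 and Rac1 were lower).

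The libraries of the 2 groups differ so much in composition that scaling moves every fold change together. TMM factors lay between 0.794 and 0.812 in β-elemene libraries and between 1.24 and 1.26 in PBS libraries. The median gene had a log2 fold change of -0.06 with TMM, -0.02 with median-of-ratios size factors, -0.37 with the upper quartile and -0.70 with library size alone. Cybb, Ncf1 and Rac2 were called higher in all 16 settings, with log2 fold changes of 1.73 to 2.44 for Cybb, 0.83 to 1.55 for Ncf1 and 0.56 to 1.25 for Rac2. Cyba, Ncf4 and Rac1 were called lower with library size alone, at -0.18, -0.36 and -0.37 (edgeR adjusted p = 0.0136, 9.97e-05 and 2.68e-05). With the upper quartile Ncf4 and Rac1 stood at -0.03 and -0.05 and did not pass (edgeR adjusted p = 0.597 and 0.41). Relative to the median gene of the same fit, the values were the same under the 4 scalings within rounding. They were 2.42 for Cybb, 1.52 for Ncf1, 1.26 for Rac2, 0.51 for Cyba, 0.34 for Ncf4 and 0.32 to 0.33 for Rac1. That sameness follows from the shared shift by arithmetic. It does not show which scaling is right, and whether the median gene was unchanged was not tested.

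**Figure D2:**
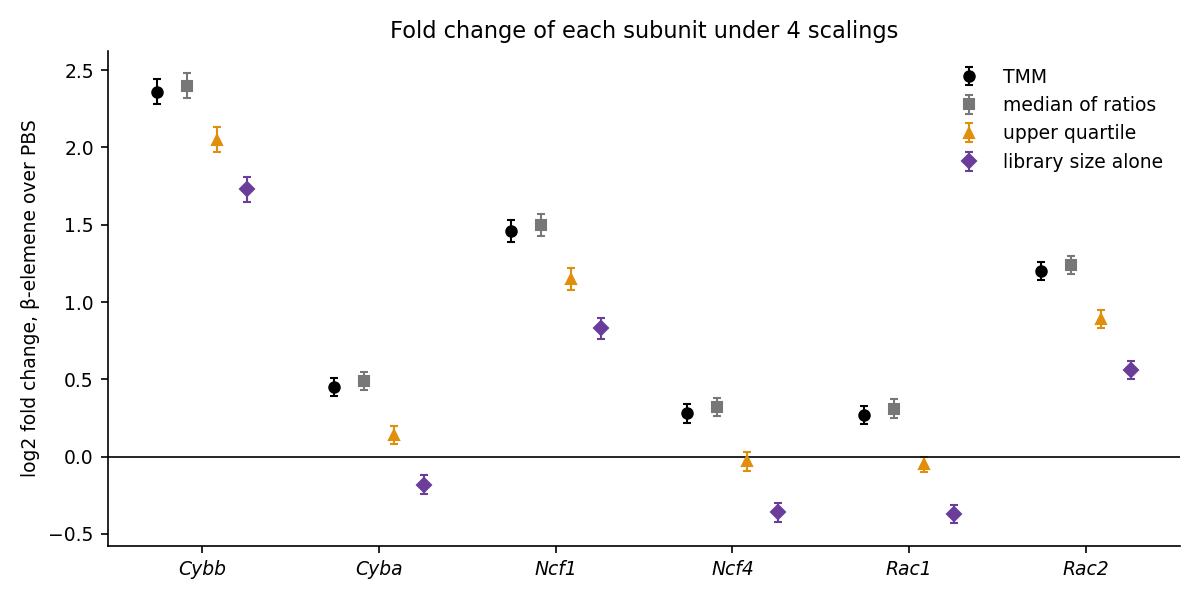
Log2 fold change (β-elemene over PBS) of the 6 members with TMM, median-of-ratios, upper quartile and no composition scaling; bars are ± SE from the edgeR fit. Cybb, Ncf1 and Rac2 stay above 0 under all 4, while Cyba, Ncf4 and Rac1 lie below 0 with library size alone, and Ncf4 and Rac1 also with the upper quartile.

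Ratios between members within a library need no scaling, and for most pairs the β-elemene and PBS libraries did not overlap. The log2 ratio of Cybb to Cyba counts, the 2 chains of the membrane core, was 2.54, 2.48 and 2.55 in the β-elemene libraries against 0.60, 0.44 and 0.78 in the PBS libraries. The ratio was thus 3.77-fold higher with β-elemene. The log2 ratio of Rac2 to Rac1 counts was 1.05, 0.97 and 0.91 with β-elemene against 0.11, -0.09 and 0.10 with PBS, a 1.91-fold higher ratio. Counts do not allow for transcript length. Divided by that length, Rac2 was at 2.57 to 2.83 times Rac1 with β-elemene and at 1.29 to 1.48 times with PBS. The Rac1 value is uncertain, as given above. The mean log2 ratio of Ncf1 to Ncf4 was also higher with β-elemene, by 1.18. Of the 15 pairs of members, 14 did not overlap between the groups, each with an exact two-sided permutation p of 0.1, the smallest that 3 against 3 allows, and an adjusted p of 0.107. Among all pairs of tested genes with a count in every library, 80.4% did not overlap in the same way, so 14 of 15 is not read as particular to the oxidase, and the 15 pairs share 6 genes. The test can therefore not reach 0.05 here. The exception was Ncf4 to Rac1, where the groups overlapped and the mean log2 ratio was 0.41 ± 0.05 with β-elemene and 0.39 ± 0.08 with PBS (SD, n = 3 each, exact permutation p = 0.7).

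**Figure D3:**
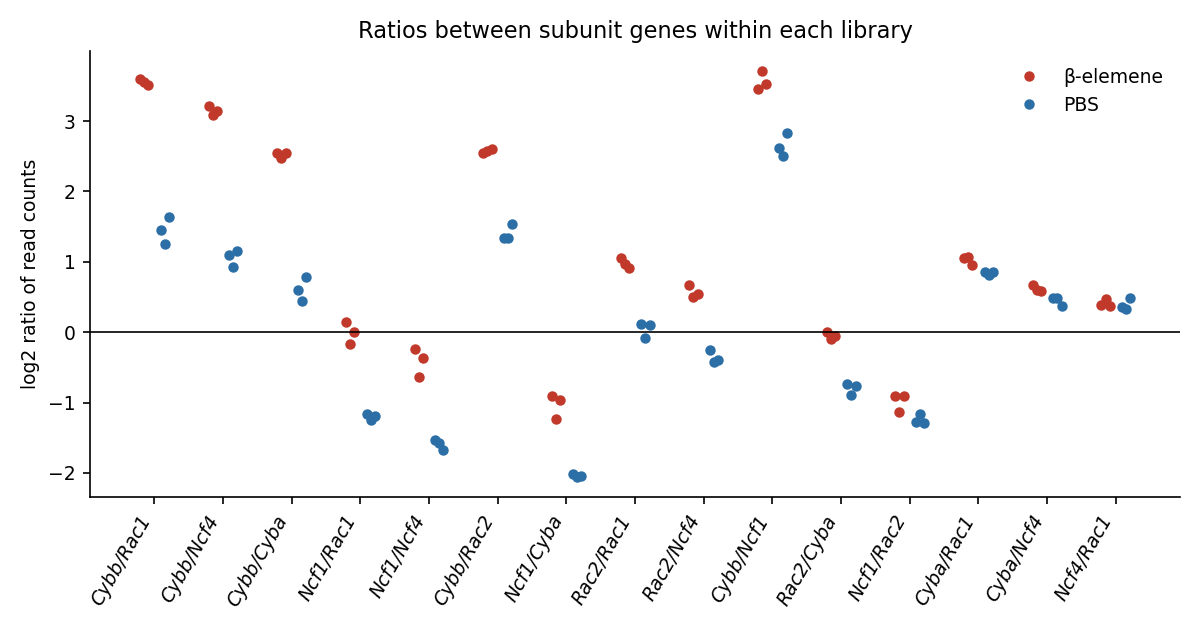
Log2 ratio of read counts for the 15 pairs of members in each library, β-elemene in red and PBS in blue, ordered by the difference between group means. The groups are apart for 14 pairs, by 2.10 for Cybb to Rac1 at the left end, and overlap for Ncf4 to Rac1 at the right end.

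Levels of different genes can be compared only per length. CPM divided by the length in kilobases of the longest principal GENCODE transcript put Cyba first in every library of both groups, at 985.3 ± 49.0 with β-elemene and 718.9 ± 16.1 with PBS (SD, n = 3 each). Cybb followed at 887.0 ± 23.8 with β-elemene, whereas with PBS it stood at 172.3 ± 17.1, below Ncf4 (268.5 ± 10.2). Per length, Cybb was at 0.871 to 0.920 of Cyba in the β-elemene libraries and at 0.213 to 0.270 in the PBS libraries. With the length of all annotated exons in place of that transcript, Cybb was at 0.995 to 1.05 of Cyba with β-elemene, so the order of these 2 genes there rests on the length used. Ncf4 stood at 326.2 ± 17 and Rac2 at 232.9 ± 10.7 with β-elemene. Rac2 stood at 101.3 ± 3.96 with PBS. The lowest levels with β-elemene were those of Ncf1 (131.6 ± 12.2) and Rac1 (86.5 ± 1.31), and with PBS those of Rac1 (71.9 ± 2.94) and Ncf1 (47.7 ± 0.797). Among the 6 members Rac1 was last in all 3 β-elemene libraries and Ncf1 in all 3 PBS libraries.

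**Figure D4:**
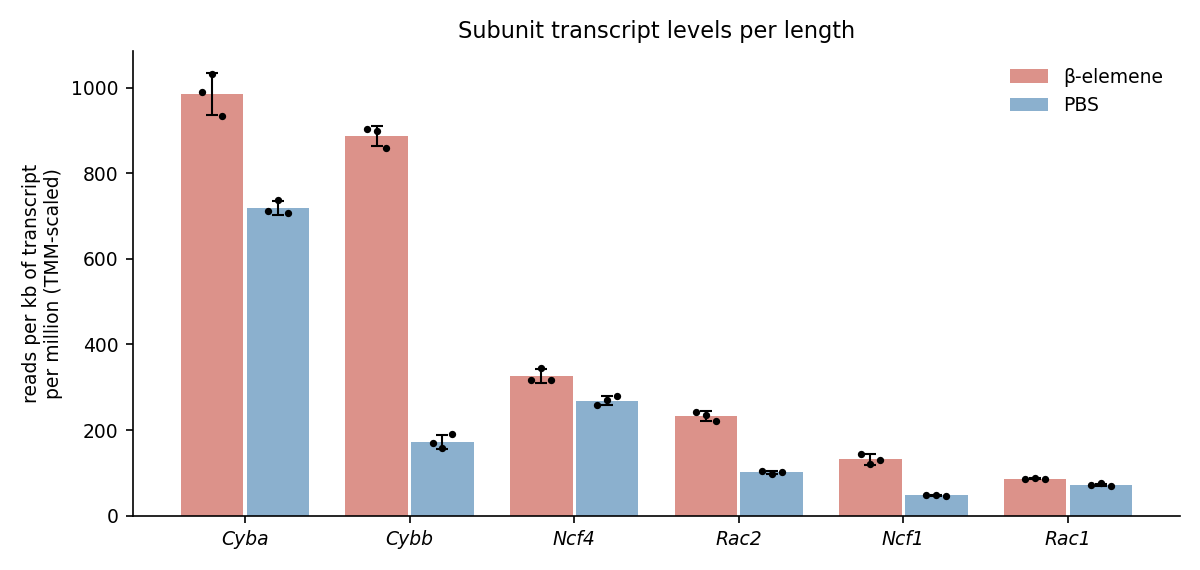
TMM-scaled CPM per kilobase of transcript of the 6 members, as the mean of 3 libraries per group with SD bars and single libraries as dots, β-elemene in red and PBS in blue. Cybb and Cyba reach 887.0 and 985.3 with β-elemene, while with PBS Cybb (172.3) is far below Cyba (718.9).

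The members' reads together were 0.526% to 0.565% of all gene counts in the β-elemene libraries and 0.301% to 0.319% in the PBS libraries. Cybb made up 61.5% to 61.6% of those reads with β-elemene and 30.7% to 35.3% with PBS. Without Cybb the other 5 members summed to 2544 to 2683 CPM with β-elemene and 1650 to 1681 CPM with PBS. In the pathway column of the deposited table, all 6 members carried the KEGG term leukocyte transendothelial migration, and 5 of them, all but Rac2, the term phagosome. Of 133 tested phagosome genes, 74 rose, 36 fell and 23 did not pass. Of 68 tested leukocyte transendothelial migration genes, 43 rose, 18 fell and 7 did not pass. Both counts are with TMM, under which 4189 of all 11459 genes tested were called higher and 4602 lower. With library size alone 2166 of all genes were higher and 8003 lower, and the counts for these terms are not given for that setting. The gene ontology term NADPH oxidase complex was given to 4 members (Cybb, Cyba, Ncf1 and Ncf4) but not to the Rac genes.

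The genes whose profile was most like a member's were found by the root mean square difference in log2 CPM over the 6 libraries, each gene centred on its own mean, among the 8877 genes that averaged 5 CPM or more. With 2 groups this mostly ranks genes by a like fold change. Sod2, the mitochondrial superoxide dismutase, was nearest to Cybb (0.017), followed by Psme2, a proteasome activator subunit (0.057), and Rffl (0.058). Of all these genes, 32 lay within 0.1 of Cybb and 92 within 0.1 of Ncf1, against 942 for Rac1, 790 for Ncf4 and 659 for Cyba. The nearest to Ncf1 were H3f3b, a histone H3.3 gene, Atp13a1 and Slc11a2, a metal ion transporter (0.030 to 0.036). Those nearest to Rac2 were Tmem192, Atg16l1, an autophagy gene, and Nfe2l1 (0.034 to 0.041). Fubp1 and Dhx38 were among the 3 nearest to Cyba, Crcp and Eif4e among the 3 nearest to Ncf4, and Prkar1a, Pdcd6ip and Senp6 were the nearest to Rac1, all at 0.011 to 0.028.

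Partners and homologues of the oxidase were read from a list of 20 genes, of which 12 were tested: 7 rose, 2 fell and 3 did not pass (4 and 5 with library size alone), with a median log2 fold change of 0.46. Rap1b and Rap1a, genes of small GTPases of which Rap1A co-purifies with cytochrome b558, had log2 fold changes of 1.91 and 0.86, both SE 0.06. Rap1b stood at 1498 ± 43.4 CPM with β-elemene and 397.3 ± 8.71 CPM with PBS (SD, n = 3 each). Rhog, a relative of Rac, rose by 0.63, a direction lost with library size alone (-0.01), and Rac3 had 6.96 ± 1.77 CPM with β-elemene and 6.06 ± 0.264 CPM with PBS (edgeR adjusted p = 0.289). Nox1, a homologue of Cybb best known from colon epithelium, had 10.5, 7.23 and 9.69 CPM with β-elemene against 0.116, 0.194 and 0.624 CPM with PBS. Its log2 fold change was 4.85 (SE 0.35, edgeR adjusted p = 8.33e-08), or 5.82 without PBS replicate 3, which held 16 of its 24 PBS counts. Nox4 had 0 counts in all with β-elemene and 16 with PBS, and Duox1 and Duox2 had 0 counts in all libraries, where up to 3 counts a library, or 0.116 to 0.195 CPM, could have been missed by counting error alone. S100a8 and S100a9, which carry arachidonate to the oxidase in neutrophils, rose by 1.97 and 0.53, though they were low, at 15.8 ± 1.13 and 6.24 ± 0.635 CPM with β-elemene and 4.03 ± 0.765 and 4.33 ± 0.944 CPM with PBS. The S100a9 call was lost in 5 of the alternative settings, among them those without β-elemene replicate 3, PBS replicate 1 or PBS replicate 3 (edgeR adjusted p = 0.0553, 0.0587 and 0.0648).

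Further genes of that list act on the core itself. BC017643, now named Cybc1, encodes the chaperone that NOX2 and p22phox need, and it had 95.3 ± 6.38 CPM with β-elemene against 106.2 ± 1.86 CPM with PBS (SD, n = 3 each, log2 fold change -0.16, SE 0.06, edgeR adjusted p = 0.0305). That call was lost with median-of-ratios size factors, with DESeq2 and without any single library but β-elemene replicate 2. Hvcn1, the proton channel that balances the charge moved by the oxidase, had 381.1, 594.4 and 365.7 CPM with β-elemene against 604.7, 690.5 and 607.7 CPM with PBS. It did not pass (log2 fold change -0.50, SE 0.20, edgeR adjusted p = 0.0607), and β-elemene replicate 2 lay close to the PBS range. Without that library the log2 fold change was -0.74 and passed (edgeR adjusted p = 3.48e-07). It also passed with the upper quartile (-0.82, edgeR adjusted p = 0.00903) and with library size alone (-1.14, edgeR adjusted p = 0.00284).

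Regulators of Rac moved in both directions: of 26 tested, 13 rose, 11 fell and 2 did not pass (4 and 19 with library size alone), with a median log2 fold change of 0.10. The exchange factor Vav2, which loads Rac with GTP, fell by 2.74 on the log2 scale, to 5.46 ± 0.741 CPM with β-elemene against 36.4 ± 1.68 CPM with PBS. Def6 and Arhgef6, also exchange factors, fell by 2.67 and 2.04. Other exchange factors on the list went both ways with TMM. Vav1 and Prex1 rose by 0.36 and 0.52, to 411.3 and 390.6 CPM with β-elemene against 319.6 and 272.1 CPM with PBS. Tiam1 fell by 1.29. These further genes are named here after their values were seen. Among GTPase-activating proteins, which switch Rac off, Arhgap25 and Racgap1 fell by 1.5 and 2.04 and Arhgap15 rose by 2.05. Abr and Srgap2 rose by 0.78 and 0.64 with TMM, to 440.4 and 331.7 CPM with β-elemene against 255.6 and 212.6 CPM with PBS. Bcr and Chn2 fell by 1.19 and 3.46, to 3.05 and 0.419 CPM with β-elemene against 6.94 and 4.65 CPM with PBS. Abr, Srgap2, Bcr and Chn2 are named here after their values were seen. Arhgdib encodes an inhibitor that holds Rac in the cytosol of blood cells. It stood at 189.4 ± 11.9 CPM with β-elemene and 214.8 ± 9.92 CPM with PBS (log2 fold change -0.18, SE 0.06, edgeR adjusted p = 0.0161). Arhgdia, a related inhibitor on the list, rose by 0.50 with TMM, to 1016 ± 58.0 CPM with β-elemene against 716.1 ± 4.58 CPM with PBS. Arhgdia is named here after its values were seen. The Arhgdib call was lost without β-elemene replicate 1 and without PBS replicate 3 (edgeR adjusted p = 0.114 and 0.0738), and with DESeq2.

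Of 26 tested genes of the signalling that activates the oxidase, 14 rose, 9 fell and 3 did not pass (11 and 13 with library size alone), with a median log2 fold change of 0.37. The Src family kinase gene Lyn rose by 2.89 on the log2 scale (SE 0.07), with 637.0 ± 37.1 CPM with β-elemene and 85.7 ± 5.34 CPM with PBS. Its relative Fgr fell by 0.83. Syk, the kinase downstream of Fc receptors, rose by 2.08 (1493 ± 111.3 CPM with β-elemene and 353.5 ± 19.5 CPM with PBS). Pla2g4a, the phospholipase that frees arachidonate, Pik3r5, a regulator of PI3Kγ, and the protein kinase C gene Prkce rose by 1.83, 1.69 and 2.16. Prkcd, a protein kinase C that phosphorylates p47phox, had 732.8 ± 50.0 CPM with β-elemene against 1251 ± 28.6 CPM with PBS and fell by 0.77 on the log2 scale (SE 0.07, edgeR adjusted p = 1.57e-07). Plcb2, a phospholipase C, fell by 1.35.

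A list of 12 phagocytic and chemotactic receptors with their signalling chains and adaptors, which includes 1 inhibitory receptor, rose in 7 cases and fell in 5 (5 and 7 with library size alone), with a median log2 fold change of 0.32. Fpr2 and Fpr1, the formyl peptide receptors, had 623.2 ± 47.0 and 92.0 ± 9.18 CPM with β-elemene against 1.84 ± 0.242 and 0.0649 ± 0.0812 CPM with PBS. Fpr1 had 5 counts over the PBS libraries, so its log2 fold change rests on few reads (10.35, and 11.81 with PBS replicate 3 left out). Among IgG receptors, Fcgr1 and Fcgr4 rose by 2.86 (SE 0.13) and 2.12 (SE 0.14). The other IgG receptors on the list, Fcgr3 and the inhibitory Fcgr2b, fell by 0.68 (SE 0.07) and 0.60 (SE 0.06) on the log2 scale and are named here after their values were seen. Fcgr2b had 1039 ± 17.7 CPM with β-elemene against 1572 ± 59.3 CPM with PBS (SD, n = 3 each), and Fcgr3 had 441.8 ± 32.7 CPM with β-elemene against 705.9 ± 22.3 CPM with PBS (SD, n = 3 each). Clec7a, the β-glucan receptor dectin-1, fell by 2.95 (220.8 ± 13.7 CPM with β-elemene and 1703 ± 66.2 CPM with PBS), and Card9, its signalling adaptor, fell by 1.54.

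NADPH is the electron donor of the oxidase. Of 14 tested genes listed for its supply, 4 rose, 7 fell and 3 did not pass (1 and 11 with library size alone). Their median log2 fold change was -0.20. The list is broad and includes genes of the non-oxidative pentose phosphate arm. G6pdx, of the oxidative arm, rose by 0.33 with TMM (221.5 ± 13.0 CPM with β-elemene and 176.5 ± 0.617 CPM with PBS). It is named here after its values were seen. Pgd, of the oxidative pentose phosphate pathway, and Rpe, of its non-oxidative arm, rose by 0.59 and 1.32. H6pd, the enzyme of the endoplasmic reticulum, Idh1, the cytosolic isocitrate dehydrogenase, Idh2 and Tkt, transketolase, fell by 1.63, 1.17, 0.60 and 0.61. Pgd had 621.5 CPM in β-elemene replicate 2, the highest of its libraries, and its direction turned with library size alone (-0.05).

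Of 17 tested genes that remove superoxide and peroxide, 11 rose, 5 fell and 1 did not pass (7 and 7 with library size alone), with a median log2 fold change of 0.55. Sod2 had 1740 ± 62.4 CPM with β-elemene against 340.3 ± 34.6 CPM with PBS (log2 fold change 2.35, SE 0.08, edgeR adjusted p = 9.76e-12), against 2.36 for Cybb. Peroxiredoxins Prdx5 and Prdx1 rose by 2.55 and 1.62, and Txn1, Txnrd1 and Gsr, of the thioredoxin and glutathione systems, rose by 1.80, 1.31 and 2.15. Gpx1, a glutathione peroxidase, and the mitochondrial peroxiredoxin Prdx3 fell by 0.40 and 0.53.

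Transcription factors known to act on phagocyte oxidase genes were a list of 19, of which 16 were tested: 9 rose, 6 fell and 1 did not pass (6 and 7 with library size alone), with a median log2 fold change of 0.45. Spi1, which encodes PU.1, had 704.8 ± 17.3 CPM with β-elemene against 333.0 ± 1.17 CPM with PBS (log2 fold change 1.08, SE 0.06, edgeR adjusted p = 6.49e-10). Irf1 rose by 2.85, and the NF-κB subunit genes Rela and Nfkb1 by 1.80 and 1.64. Irf8, a partner of PU.1 at the CYBB promoter in human cells, had 441.6 ± 97.0 CPM with β-elemene against 140.7 ± 12.8 CPM with PBS and rose by 1.65 (SE 0.18, edgeR adjusted p = 1.70e-04). Cebpa, a factor of myeloid differentiation, fell by 3.99, to 16.6 ± 1.20 CPM with β-elemene against 264.2 ± 15.5 CPM with PBS. No test here ties any of these factors to an oxidase gene.

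**Figure D5:**
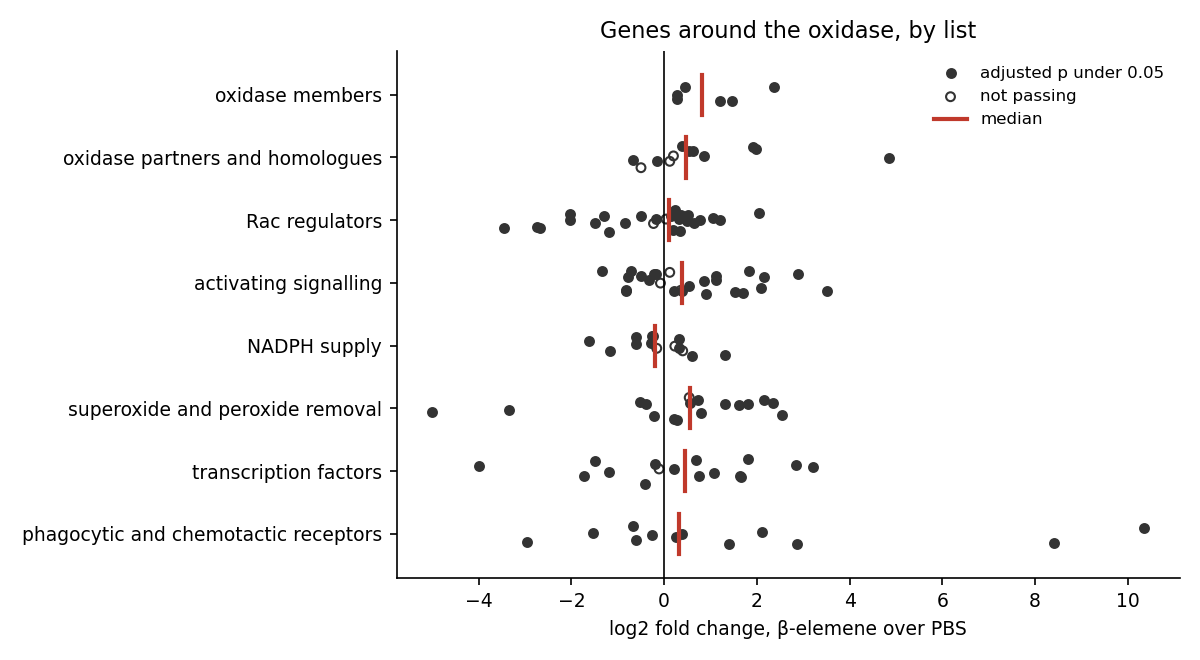
Log2 fold change (β-elemene over PBS, TMM) of each tested gene in the 6 members and 7 surrounding lists; filled points passed an adjusted p of 0.05, open points did not, and the red line is the list's median. All 6 members lie above 0 with TMM, with a median of 0.83 (Cyba, Ncf4 and Rac1 fall below 0 with library size alone). Across all genes tested, 36.6% were called higher with TMM. Every other list has more tested genes and holds some on both sides of 0, so the contrast is not read as particular to the oxidase.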

How the data were processed

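Messenger RNA of 6 libraries was sequenced as stranded paired ends, per the labels' protocols. Per the submitters' processing notes, the tools included HISAT2 2.2.1.0 and the genome builds were mm10 and GRCm38.p6. The values deposited by the authors are unnormalized read counts for each gene. Which counter made them, with which strand setting, is not given in the sources used here. Sample titles gave each library's group and replicate number. The members and lists were chosen with earlier results of these data known.

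The 27 symbols stored as date numbers were restored by gene identifier. No replicate pair agreed within sampling noise (chi-square per degree of freedom 3.82 to 13.8). filterByExpr (count of 10, total of 15) left 11459 genes, which were scaled with TMM and tested under R 4.3.3 by the robust quasi-likelihood fit of edgeR 4.0.16 (group as the only term, Benjamini-Hochberg over all genes, threshold 0.05). SE is the log2 fold change over the root of F. Pair ratios used exact permutation (SciPy 1.17.1) over 15 pairs. Per-length levels used the longest GENCODE M21 transcript tagged principal, chosen over the length of all exons after the data were seen. Promoters matched 3 of 6 members. Genes were named by rule: the members, a panel of 12 oxidase-related genes, and from each list the 6 largest passing changes averaging 5 CPM or more, with at most 2 more that went the opposite way, and 3 nearest profiles per member. Results for some genes that the rule names are not reported here. Alternatives were RLE size factors, upper quartile, library size alone, no filter, 1 CPM in 3 libraries, DESeq2 1.42.0, limma-voom (limma 3.58.1), no robust estimation, a replicate block and leaving out each library. The fit was tested on simulated data in which few genes changed and the groups had the same composition. That test therefore does not cover the wide change seen here, nor the choice of scaling. No deposited count column was left unmapped.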

Additional observations from a re-analysis of the deposited data

How the results depend on the processing

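Cybb, Ncf1 and Rac2 kept their direction and call under all 15 alternatives to the reported fit. With library size alone Cyba, Ncf4 and Rac1 turned to -0.18, -0.36 and -0.37 (3 of 6 members higher), and with the upper quartile Ncf4 and Rac1 turned to -0.03 and -0.05. Since scaling shifts all genes together, these turns follow from the shift of the median gene given above. With library size alone, Rhog, S100a9, Rac3 and Pgd stood at -0.01, -0.11, -0.44 and -0.05. List counts moved by more than 1.5 times in these cases. Oxidase partners had 4 higher and 5 lower with library size alone, and 1 lower with RLE size factors, with DESeq2 and in 5 of the 6 fits that left out a library (range 1 to 3). Rac regulators had 7 higher with the upper quartile, and 4 higher and 19 lower with library size alone. NADPH supply had 2 higher with the upper quartile, and 1 higher and 11 lower with library size alone. Superoxide and peroxide removal had 7 higher with library size alone. The difference in the Ncf4 to Rac1 log2 ratio ran from -0.02 to 0.06 over the fits without 1 library.

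Genes changed numbered 8791, and 8368 to 10169 under the alternatives, with 4189 higher and 4602 lower in the reported fit, against 2947 and 6528 with the upper quartile and 2166 and 8003 with library size alone. Same-numbered libraries shared little deviation over all genes (correlations of -0.0328, 0.0571 and 0.0151, against -0.0554 to 0.0446 for unlike numbers). Such values over few libraries cannot decide whether the libraries were paired. With the replicate block 8793 genes changed, all 6 members kept their call, and Hvcn1 passed at -0.54 (edgeR adjusted p = 4.14e-04), as it did at -0.50 without robust estimation. Depth does not limit the members, the lowest of which had 3267 counts in a library (Ncf1).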
